A study of Homo sapiens with 8 samples.

Results

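Transcripts of the sugar and monocarboxylate transporters were examined in NCCIT, a human embryonic carcinoma cell line, after depletion of 1 of the 3 TET enzymes by small interfering RNA. The genes were chosen by symbol: every gene of the SLC2, SLC5 or SLC16 family that had a probe group (transcript cluster) naming that gene alone. This gave 35 of the 18417 genes measured, each with 1 cluster. They comprised all 14 SLC2 genes, all 12 SLC5 genes and 8 of the 14 SLC16 genes of the reference annotation, plus SLC2A4RG, which matches by name only and encodes a regulator of SLC2A4 rather than a carrier. The other SLC16 genes were not analysed here as single genes.

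The TET enzymes oxidise 5-methylcytosine in DNA to 5-hydroxymethylcytosine. Cells received a pool of siRNAs against TET1 (siTET1), TET2 (siTET2) or TET3 (siTET3), or a non-targeting control siRNA (siNTC) transfected in parallel, and each group had 2 arrays, 8 in all. All groups were undifferentiated cells in the same medium. Each depletion was transient and used 1 siRNA pool, so an effect of the enzyme's loss and one of the siRNA sequences cannot be told apart. Values are log2 intensities of an Affymetrix human gene array, and fold changes are differences of group means on that scale, with the standard error (SE) of the limma fit and n = 2 arrays per group. A gene was called at a Benjamini-Hochberg adjusted p below 0.05 over all 18417 genes. Background was set at a log2 value of 5.21, below which 95% of 341 olfactory receptor genes, silent in most tissues, had their mean.

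Sugars cross cell membranes through 2 unrelated families. SLC2 proteins (GLUTs) let hexoses move down their gradient, while many SLC5 proteins (SGLTs and relatives) use the sodium gradient to take up sugars, inositol, vitamins, iodide, choline or short organic acids. SLC16 proteins (MCTs) include the proton-coupled carriers of lactate and pyruvate, together with carriers of aromatic amino acids, creatine and carnitine. Rapidly dividing and pluripotent cells are known for high glucose uptake through SLC2A1 and SLC2A3 and for lactate release.

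The sequence around the start of 3 genes is shown because these were the carriers with a change of at least 1.5-fold that had an entry in the RefSeq promoter table (GRCh38.p14). Each window runs from 250 bases before to 50 bases after the annotated start, on the gene's own strand, 5′ to 3′, and where a gene had several windows the outermost start was used. Capitals mark the letters ACGTG or GCGTG read on either strand. These are core letters of elements bound by hypoxia-inducible factors, and CACGTG, which holds ACGTG on both strands, is the E-box of the MYC and MLX families. SLC2A1 lies at chr1:42958819-42959118 (minus strand), SLC16A9 at chr10:59710030-59710329 (minus strand) and SLC16A7 at chr12:59595779-59596078 (plus strand).
SLC2A1: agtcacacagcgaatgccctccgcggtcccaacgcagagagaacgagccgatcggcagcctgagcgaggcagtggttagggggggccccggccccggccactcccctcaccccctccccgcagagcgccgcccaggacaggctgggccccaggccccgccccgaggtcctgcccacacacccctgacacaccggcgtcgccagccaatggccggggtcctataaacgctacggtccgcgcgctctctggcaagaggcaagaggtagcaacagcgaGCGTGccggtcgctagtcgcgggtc
SLC16A9: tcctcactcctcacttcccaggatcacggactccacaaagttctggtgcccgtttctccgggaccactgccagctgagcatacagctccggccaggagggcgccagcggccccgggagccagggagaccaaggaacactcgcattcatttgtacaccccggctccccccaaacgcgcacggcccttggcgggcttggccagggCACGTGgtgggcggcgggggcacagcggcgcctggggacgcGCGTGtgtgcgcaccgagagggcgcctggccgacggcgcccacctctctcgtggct
SLC16A7: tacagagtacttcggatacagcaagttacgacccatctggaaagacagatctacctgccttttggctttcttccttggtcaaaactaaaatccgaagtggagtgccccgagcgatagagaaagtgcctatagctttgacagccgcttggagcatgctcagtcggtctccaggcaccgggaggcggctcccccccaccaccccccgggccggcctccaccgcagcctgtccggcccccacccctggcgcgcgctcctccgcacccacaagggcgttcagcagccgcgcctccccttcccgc

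These windows held 30, 28 and 21 CpG dinucleotides for SLC2A1, SLC16A9 and SLC16A7, against a median of 14 (quartiles 4 and 28) over all 35116 windows of 300 bases. The SLC2A1 window held GCGTG at 1 position, and the SLC16A9 window held ACGTG at 2, both in the CACGTG, and GCGTG at 1. The SLC16A7 window held neither. Of the 35 genes, 29 matched a window, and SLC2A3, SLC2A4, SLC2A7, SLC5A9, SLC5A11 and SLC16A5 did not. Either set of letters stood in 16 of the 29 (55.2%), near the 48.4% of all windows, where ACGTG stood in 21.4% and GCGTG in 36.5%. Among the genes with a window, the 13 called in any comparison had a median of 29 CpG (1 to 51) and the 16 called in none a median of 11.5 (2 to 56). All genes with means below background were called in none, so the called and uncalled genes also differ in expression level. The uncalled genes above background likewise ran from 2 to 56 CpG. These counts are descriptions, and they carry no test.

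The targeted transcripts were checked first. TET1 had log2 values of 10.62 and 10.53 in siNTC and 9.91 and 9.87 in siTET1 cells, a fall to 62.3% (limma adjusted p = 2.9e-07). TET2 had 7.71 and 7.91 in siNTC and 6.95 and 6.92 in siTET2 cells, a fall to 54.4% (adjusted p = 9.74e-06). TET3 had 7.74 and 7.30 in siNTC and 6.23 and 6.66 in siTET3 cells, a fall to 47.4% (adjusted p = 7.52e-05). Each targeted transcript was thus lower in its own depletion, though not absent. TET1 was also lower in siTET2 cells (81.4% of siNTC, limma adjusted p = 0.000287) and higher in siTET3 cells (134%, adjusted p = 1.69e-05), and TET2 was lower in siTET3 cells (72.4%, adjusted p = 0.00177). The siNTC arrays stood apart from the rest: across genes they correlated with depletion arrays at 0.989 to 0.991, against 0.995 to 0.998 between different depletions and 0.998 to 0.999 between replicates. The 3 comparisons with siNTC share its 2 arrays, so their values are not independent of each other. Of the 8 pluripotency markers listed, POU5F1, NANOG and TDGF1 were not among the genes tested. The 5 that were (SOX2, LIN28A, LIN28B, DPPA4 and SALL4) lay above background, with a summed level of 14.001 to 14.141 on the log2 scale over the 8 arrays. Single markers were called in both directions. SALL4 was called lower in all 3 depletions (-0.17, -0.21 and -0.24) and SOX2 in siTET2 and siTET3 (-0.13 and -0.19). DPPA4 was called higher in all 3 (0.12, 0.11 and 0.19) and LIN28A in siTET1 (0.25). Trophectoderm markers (3 of 5 above background, KRT7 and CGA below) summed to 8.18 to 8.24 in siNTC and 7.73 to 7.88 in the depletions. HAND1 was called lower in all 3 depletions (-0.84, -0.96 and -0.85) and GATA3 in siTET1 alone (-0.37). CDX2 was called in none. CGA was called higher in siTET2 (0.32), though it was below background there and in siNTC. Neuroectoderm markers (2 of 4 above, PAX6 and SOX1 below) summed to 11.22 to 11.28 in siNTC, 11.32 to 11.36 in siTET1 and 10.65 to 10.77 in siTET2 and siTET3, where OTX2 was called lower in both (-0.52 and -0.60) and NES in siTET2 alone (-0.42). Mesendoderm markers (3 of 7 above, TBXT, SOX17, FOXA2 and AFP below) summed to 8.11 to 8.27, with calls in both directions. GATA6 was called higher in siTET2 (0.34) and siTET3 (0.53), and FOXA2 in siTET3 (0.32). AFP was called lower in siTET2 and siTET3 (-0.49 and -0.58). The part of these genes in the transporter results was not tested, and in bulk RNA fewer cells of a kind and less RNA per cell cannot be told apart.

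Among the carriers, SLC5A9 rose sharply in every depletion, and SLC2A1, SLC2A6 and SLC16A7 rose less in all 3. SLC5A6, SLC16A4, SLC16A9 and SLC16A10 fell in all 3. These 8 genes were the ones called against siNTC in every depletion. A further 7 (SLC2A3, SLC2A10, SLC2A12, SLC2A13, SLC5A3, SLC5A12 and SLC16A8) were called in 1 or 2 depletions, and 20 genes were called in none of the 6 comparisons. The matching shares of all genes are not given here, and the 3 comparisons with siNTC share its arrays. These counts therefore do not set the carriers apart from other genes. In all, 23 of the 35 (65.7%) had a mean above background, beside 69.2% of all genes, and the 12 that did not (SLC2A2, SLC2A5, SLC2A7, SLC2A9, SLC5A1, SLC5A2, SLC5A4, SLC5A5, SLC5A7, SLC5A8, SLC5A11 and SLC16A12) were called nowhere.

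The share of carriers called was close to or below that of all genes in each depletion. In siTET1 cells 10 of 35 were called (28.6%, beside 34.3% of all genes), 4 higher (background 15.6%) and 6 lower (18.7%), and 3 reached 1.5-fold (5.13%). In siTET2 cells 11 were called (31.4%, beside 36.2%), 6 higher (14.4%) and 5 lower (21.8%), with 2 at 1.5-fold (6.16%). In siTET3 cells 12 were called (34.3%, beside 36.1%), 6 higher (13.8%) and 6 lower (22.3%), with 2 at 1.5-fold (5.91%). The median log2 fold changes of the 35 genes were -0.044, -0.017 and 0.058, beside -0.031, -0.039 and -0.017 over all genes.

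**Figure D1:**
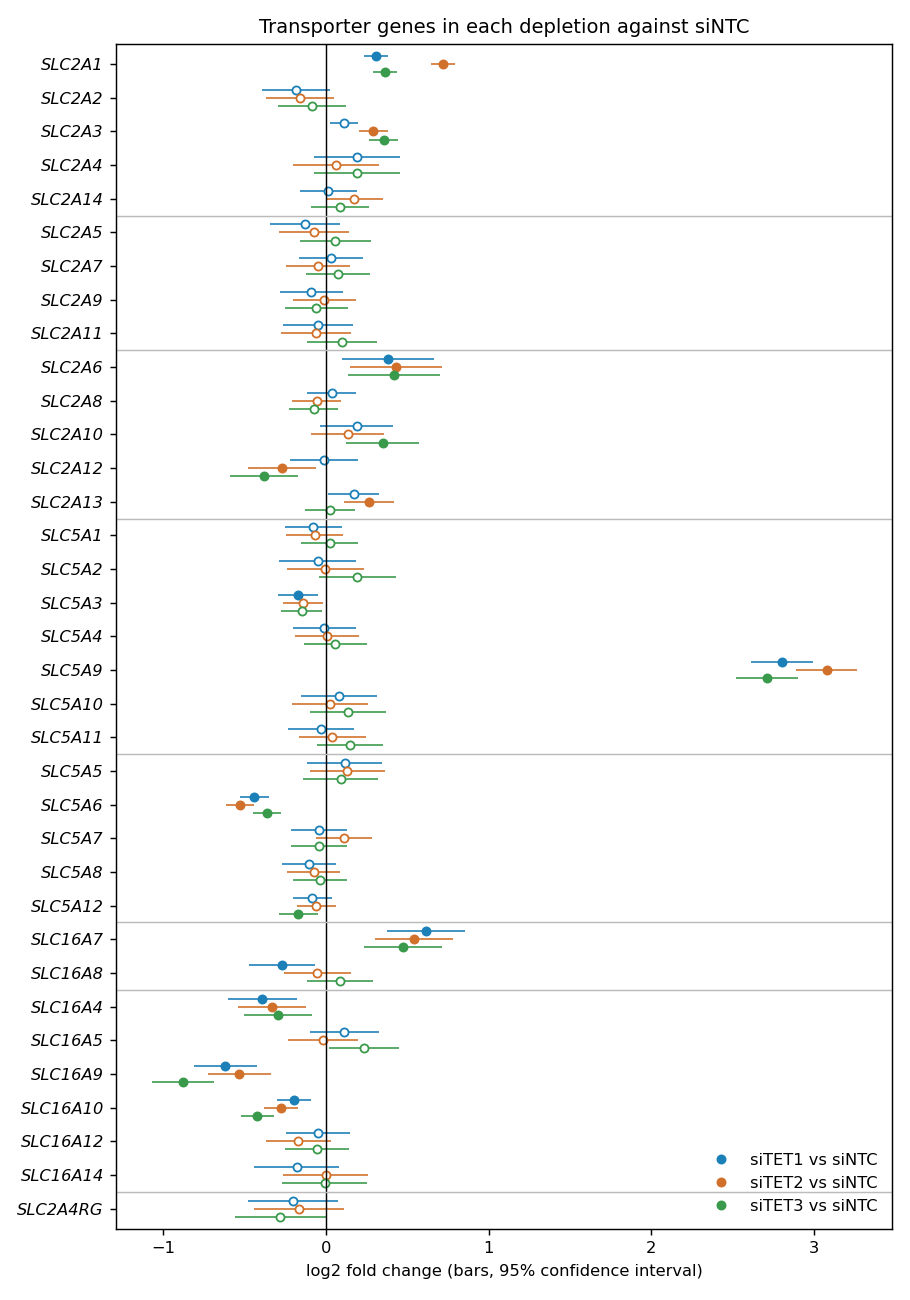
Log2 fold change against siNTC (x axis) of the 35 genes (y axis) in siTET1, siTET2 and siTET3 cells. Points are differences of the means of 2 arrays, filled where called and open where not, bars are 95% confidence intervals, and grey lines part the role groups. SLC5A9 lies at 2.71 to 3.08, and the next largest rise is that of SLC2A1 in siTET2 cells at 0.72.

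SLC5A9, known as SGLT4, is a sodium-coupled carrier of mannose, fructose and related sugars, best known from intestine and kidney. Its log2 values were 5.23 and 5.44 on the siNTC arrays, at the edge of background. They were 8.07 and 8.21 on the siTET1 arrays, 8.39 and 8.44 on the siTET2 arrays, and 8.02 and 8.07 on the siTET3 arrays. All 6 depletion arrays lay above both siNTC arrays, with a gap of 2.575 between the nearest of them, while replicates were at most 0.218 apart. The log2 fold change was 2.80 ± 0.087 (SE, n = 2) in siTET1, a 6.98-fold rise (limma adjusted p = 3.88e-10). It was 3.08 ± 0.087 in siTET2, an 8.44-fold rise (adjusted p = 1.05e-10), and 2.71 ± 0.087 in siTET3, a 6.55-fold rise (adjusted p = 6.05e-10). By size of rise SLC5A9 ranked 2, 3 and 2 among the 18417 genes. The call held under all 15 alternatives in every depletion.

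**Figure D2:**
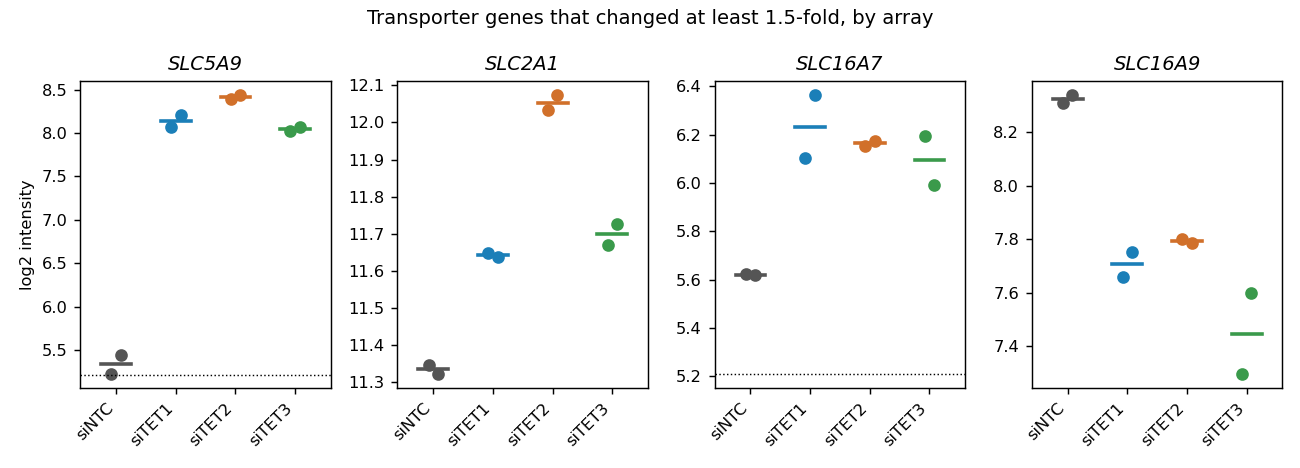
Log2 intensity (y axis, a separate scale for each gene) of the 4 carriers that changed at least 1.5-fold in a depletion, by group (x axis). Points are single arrays, bars are means of 2 arrays, and the dotted line is background at 5.21. SLC5A9 sits at background in siNTC and between 8.02 and 8.44 in the depletions, and SLC16A9 is lower on all 6 depletion arrays.

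The genes around SLC5A9 on chromosome 1 showed no shift of that size. Its 25 nearest genes above background had median log2 fold changes of 0.013, -0.032 and -0.034 in siTET1, siTET2 and siTET3, with extremes of -0.20 and 1.02, -0.35 and 0.78, and -0.26 and 0.51. Of these 25 genes, 5, 5 and 3 were called higher, beside 15.6%, 14.4% and 13.8% of all genes. Those called lower numbered 4, 9 and 6, beside 18.7%, 21.8% and 22.3%. All genes include those below background, which these neighbours do not. The highest value in each depletion belonged to AGBL4, 3 places away in the order of these genes and called higher in all 3. This order follows the midpoints of the genes, and whether genes overlap was not examined. SPATA6, next to SLC5A9 in this order, had log2 fold changes of -0.019, -0.013 and -0.20. BEND5, 2 places away in this order, had 0.21, 0.73 and 0.21 and was called in siTET2 alone. AGBL4, BEND5 and SPATA6 were singled out after their values were seen.

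**Figure D3:**
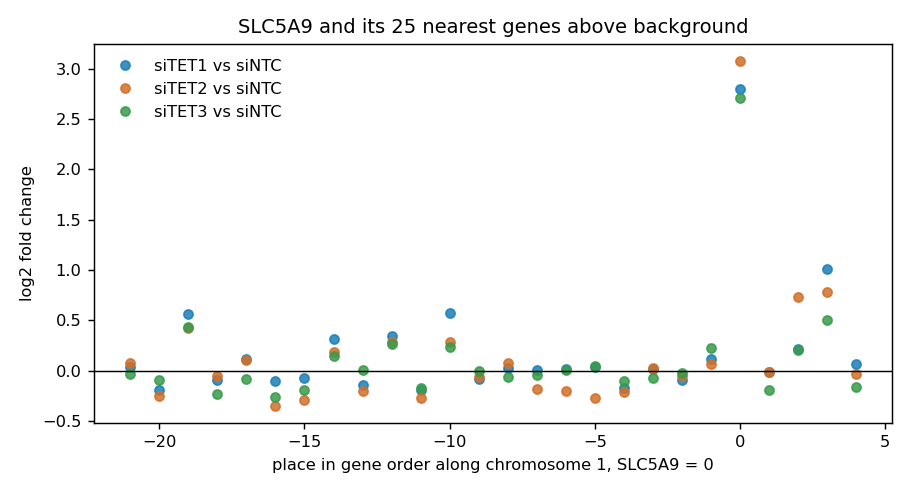
Log2 fold change against siNTC (y axis) of SLC5A9 and its 25 nearest genes above background, by place in gene order along chromosome 1 (x axis, SLC5A9 at 0), in the 3 depletions (colours). SLC5A9 stands at 2.71 to 3.08, and no neighbour exceeds 1.02.

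The other sodium-coupled carriers of sugars and polyols gave 1 call. SLC5A3, which takes up myo-inositol, had values of 8.74 and 8.67 in siNTC, 8.57 and 8.50 in siTET1, 8.54 and 8.60 in siTET2, and 8.56 and 8.56 in siTET3, lower on all 6 depletion arrays. It was called in siTET1 alone (-0.17 ± 0.057, limma adjusted p = 0.0342, beside 0.0742 and 0.0595 in siTET2 and siTET3). Its 25 nearest genes on chromosome 21 had a median of -0.20 in siTET1 with 12 called lower, beside 18.7% of all genes. With the neighbours' median taken off array by array, its own change was 0.012 (adjusted p = 0.905). The gene overlaps MRPS6, so probes may not separate them, and a cluster that names both was lower on all 6 depletion arrays, with differences of -0.19, -0.19 and -0.23, untested. The SLC5A3 call was also lost without siTET1 replicate 1 or 2 (adjusted p 0.0574 and 0.224), siTET2 replicate 1 or 2 (0.0535 and 0.0538) and siNTC replicate 1 (0.171), after quantile normalization (0.0641) and with no intensity trend in the fit (0.0571). SLC5A10, SLC5A1, SLC5A2, SLC5A4 and SLC5A11, among them the intestinal and renal glucose carriers SGLT1 and SGLT2, were called in no comparison, and all but SLC5A10 had a mean over the 8 arrays below background, though SLC5A2 was above it on both siTET3 arrays (5.25 and 5.32).

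Class I of the facilitative carriers holds the main glucose entry routes, and its members SLC2A1 and SLC2A3 rose. SLC2A1 (GLUT1), the carrier of basal glucose uptake, had values of 11.35 and 11.32 in siNTC, 11.65 and 11.64 in siTET1, 12.03 and 12.07 in siTET2, and 11.67 and 11.73 in siTET3. Replicates were at most 0.057 apart, and all 6 depletion arrays were above siNTC. The log2 fold change was 0.31 ± 0.035 in siTET1 (limma adjusted p = 1.45e-05), 0.72 ± 0.035 in siTET2 (1.65-fold, adjusted p = 9.52e-09) and 0.36 ± 0.035 in siTET3 (adjusted p = 3.29e-06). Its 25 nearest genes had medians of 0.0040, -0.072 and -0.094. All 3 calls held under all 15 alternatives.

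SLC2A3 (GLUT3), a high-affinity glucose carrier of neurons and early embryos, had values of 12.43 and 12.35 in siNTC, 12.50 and 12.50 in siTET1, 12.68 and 12.68 in siTET2, and 12.80 and 12.68 in siTET3. It rose by 0.29 ± 0.041 in siTET2 (limma adjusted p = 8.36e-05) and 0.36 ± 0.041 in siTET3 (adjusted p = 1.64e-05), calls that held under all 15 alternatives. In siTET1 the change was 0.11 with an adjusted p of 0.0502, just short of the threshold. SLC2A14 (GLUT14) is a near-identical copy beside it on chromosome 12, so probes may be shared and the values of both are uncertain. Its own changes were 0.014, 0.17 and 0.085, called nowhere. SLC2A4 (GLUT4), the insulin-responsive carrier of muscle and fat, ranged from 5.07 to 5.55 over the 8 arrays, and SLC2A2 (GLUT2), the carrier of liver and beta cells, was below background on all 8. Neither was called.

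Class II, the fructose and urate carriers and their relatives, gave no call in any comparison. SLC2A11 was its one member above background, at 5.61 to 5.87 over the 8 arrays, while SLC2A5 (the fructose carrier GLUT5), SLC2A7 and SLC2A9 (a urate carrier) had means below it.

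Class III, carriers found largely on inner membranes or with other substrates, had all 5 members above background. Against siNTC 1, 3 and 3 of these 5 were called in siTET1, siTET2 and siTET3. The shares were 20%, 60% and 60%, beside 34.3%, 36.2% and 36.1% of all genes. SLC2A6 (GLUT6), a carrier of lysosomal membranes, had values of 7.32 and 6.80 in siNTC, 7.51 and 7.37 in siTET1, 7.42 and 7.56 in siTET2, and 7.47 and 7.48 in siTET3. The 2 siNTC arrays were 0.51 apart, and the higher was 0.055 under the lowest depletion array. The changes were 0.38 ± 0.13, 0.43 ± 0.13 and 0.42 ± 0.13 (limma adjusted p 0.0379, 0.0191 and 0.0232). The sizes depended on which siNTC array was kept. Without siNTC replicate 2 they were 0.12, 0.18 and 0.16 and no longer called (adjusted p 0.407, 0.216 and 0.259), and without siNTC replicate 1 they were 0.64, 0.69 and 0.67. All 3 calls were also lost with no intensity trend (0.0902, 0.0576 and 0.065) and with the neighbours' median taken off (0.129, 0.053 and 0.0877), and with only the 4 arrays compared those in siTET1 and siTET3 were (0.0657 and 0.0509). The siTET1 call was lost without siTET1 replicate 1 or 2 (0.209 and 0.0663) or siTET2 replicate 1 or 2 (0.0554 and 0.0558), the siTET2 call without siTET2 replicate 2 (0.147), and the siTET3 call without siTET3 replicate 1 or 2 (0.0659 and 0.0626).

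SLC2A12 (GLUT12) fell in siTET2 and siTET3. Its values were 5.52 and 5.54 in siNTC, 5.51 and 5.52 in siTET1, 5.23 and 5.28 in siTET2, and 5.07 and 5.23 in siTET3, so siTET2 and siTET3 lay near background and 1 siTET3 array was below it. The changes were -0.27 ± 0.096 (limma adjusted p = 0.0415) and -0.38 ± 0.096 (adjusted p = 0.00682). With the neighbours' median taken off, neither was called (-0.17 and -0.24, adjusted p 0.191 and 0.0705). The siTET3 call was also lost without siTET3 replicate 1 (0.0507). The siTET2 call was lost without siTET1 replicate 1 or 2 (0.0583 each), siTET2 replicate 1 or 2 (0.194 and 0.114) and siNTC replicate 1 or 2 (0.103 and 0.135).

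SLC2A13, the proton-coupled myo-inositol carrier HMIT, rose in siTET2 cells. Its values were 7.82 and 7.64 in siNTC, 7.89 and 7.91 in siTET1, 7.999 and 7.987 in siTET2, and 7.75 and 7.76 in siTET3. Only siTET1 and siTET2 cleared both siNTC arrays, and the change in siTET2 was 0.26 ± 0.071 (limma adjusted p = 0.0105). It was lost without siTET2 replicate 1 or 2 (0.0697 and 0.0581) or siNTC replicate 2 (0.1). Of its 25 nearest genes on chromosome 12, 12 were called higher in siTET2, beside 14.4% of all genes. With the neighbours' median taken off, its change was 0.14 (0.129). SLC2A10 (GLUT10) rose in siTET3 cells, from 6.63 and 6.71 in siNTC to 7.13 and 6.91 (0.35 ± 0.10, adjusted p = 0.0176), with 6.78 and 6.94 in siTET1 and 6.90 and 6.71 in siTET2. That call was lost without siTET3 replicate 1 (0.137) or siNTC replicate 1 (0.0975). SLC2A8 (GLUT8), an intracellular hexose carrier, stayed between 7.77 and 7.95 on all 8 arrays and was called nowhere.

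Among the SLC5 carriers of other solutes, SLC5A6 (SMVT) fell in every depletion. It takes up biotin, pantothenate and lipoate. Its values were 10.67 and 10.63 in siNTC, 10.23 and 10.18 in siTET1, 10.12 and 10.12 in siTET2, and 10.28 and 10.30 in siTET3. Replicates were at most 0.050 apart, and all 6 depletion arrays were below siNTC. The changes were -0.44 ± 0.040 (limma adjusted p = 2.52e-06), -0.53 ± 0.040 (adjusted p = 4.26e-07) and -0.36 ± 0.040 (adjusted p = 1.25e-05), and each call held under all 15 alternatives. The siTET3 change was -0.24 with the neighbours' median taken off. SLC5A12 (SMCT2), a sodium-coupled lactate carrier of low affinity, had values of 8.66 and 8.61 in siNTC, 8.56 and 8.54 in siTET1, 8.55 and 8.60 in siTET2, and 8.48 and 8.45 in siTET3. It was called in siTET3 alone (-0.17 ± 0.055, adjusted p = 0.0288). After quantile normalization the adjusted p was 0.454, and without siTET3 replicate 1 or 2 or siNTC replicate 1 it was 0.0522, 0.0781 and 0.13. With only the 4 arrays compared it was 0.0907. The iodide carrier SLC5A5, the choline carrier SLC5A7 and the sodium-coupled monocarboxylate carrier SLC5A8 were below background on all 8 arrays.

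Of the 4 proton-coupled carriers of lactate and pyruvate, SLC16A7 and SLC16A8 could be followed. SLC16A7 (MCT2), which favours lactate and pyruvate uptake, had values of 5.62 and 5.62 in siNTC, 6.10 and 6.36 in siTET1, 6.15 and 6.17 in siTET2, and 6.20 and 5.99 in siTET3. All 6 depletion arrays were at least 0.37 above siNTC, and the spread within siTET1 was 0.26. The changes were 0.61 ± 0.11 (1.53-fold, limma adjusted p = 0.00071), 0.54 ± 0.11 (adjusted p = 0.00161) and 0.47 ± 0.11 (adjusted p = 0.00428), and they held under all 15 alternatives. Its 25 nearest genes on chromosome 12 had medians of -0.15, -0.038 and -0.11. SLC16A8 (MCT3), known from the retinal pigment epithelium, was lower in siTET1 (5.66 and 5.81) than in siNTC (5.995 and 6.007), siTET2 (5.94 and 5.96) or siTET3 (6.09 and 6.08). The siTET1 change was -0.27 ± 0.094 (adjusted p = 0.0419). It was lost without siTET1 replicate 1 (0.268), siTET2 replicate 1 or 2 (0.0685 and 0.0686) and siNTC replicate 1 or 2 (0.112 and 0.125), with only the 4 arrays compared (0.0614) and with the neighbours' median taken off (0.127).

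The remaining SLC16 genes, which carry other solutes or have no settled substrate, supplied 3 of the 4 genes that fell throughout. SLC16A9 (MCT9), linked to carnitine, had values of 8.31 and 8.34 in siNTC, 7.66 and 7.75 in siTET1, 7.80 and 7.79 in siTET2, and 7.30 and 7.60 in siTET3. All 6 depletion arrays were lower than both siNTC arrays, with the widest spread, 0.30, in siTET3. The changes were -0.62 ± 0.089 in siTET1 (to 65.1% of siNTC, limma adjusted p = 0.000118), -0.53 ± 0.089 in siTET2 (69.1%, adjusted p = 0.000359) and -0.88 ± 0.089 in siTET3 (54.4%, adjusted p = 5.59e-06). The calls held under all 15 alternatives, and its 25 nearest genes had medians of 0.047, 0.030 and 0.087. Its window above holds the CACGTG, and a link between these letters and the fall was not tested. The window of SLC2A13, a gene called higher in siTET2, also held ACGTG at 2 positions.

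SLC16A10 (TAT1), which carries tryptophan, tyrosine and phenylalanine, had values of 10.56 and 10.46 in siNTC, 10.30 and 10.33 in siTET1, 10.20 and 10.26 in siTET2, and 10.05 and 10.12 in siTET3. The depletion arrays were all below siNTC. The changes were -0.20 ± 0.047 (limma adjusted p = 0.0055), -0.28 ± 0.047 (adjusted p = 0.000424) and -0.42 ± 0.047 (adjusted p = 1.31e-05). The siTET1 call was lost without siTET1 replicate 1 (0.0524) or siNTC replicate 1 (0.0566). With the neighbours' median taken off, the changes were -0.39, -0.41 and -0.49. SLC16A4 (MCT5) had values of 5.67 and 5.78 in siNTC, 5.33 and 5.33 in siTET1, 5.45 and 5.33 in siTET2, and 5.46 and 5.39 in siTET3, all close to background. Its changes were -0.39 ± 0.097, -0.33 ± 0.097 and -0.29 ± 0.097 (adjusted p 0.00687, 0.0171 and 0.0309), and without siNTC replicate 2 none of the 3 was called (0.0561, 0.108 and 0.163). The siTET2 call was also lost without siTET2 replicate 2 (0.15) and the siTET3 call without siTET3 replicate 2 (0.0964) or with only the 4 arrays compared (0.0787). SLC16A5 (MCT6), SLC16A14 and the creatine carrier SLC16A12 were called in no comparison.

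The 20 genes called in none of the comparisons had log2 fold changes between -0.20 and 0.19 in siTET1, -0.17 and 0.17 in siTET2, and -0.28 and 0.23 in siTET3. SLC2A4RG was the lowest of them in siTET1 and siTET3.

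Fewer transporters were called between depletions than against siNTC, and none reached 1.5-fold between them. Between siTET2 and siTET1, 2 of 35 were called (5.71%, beside 6.46% of all genes), both higher in siTET2 (background 2.33%) and 0 lower (4.13%). Between siTET3 and siTET1, 4 were called (11.4%, beside 13.8%), 2 higher in siTET3 (3.82%) and 2 lower (9.94%). Between siTET3 and siTET2, 5 were called (14.3%, beside 12.2%), 1 higher in siTET3 (4.94%) and 4 lower (7.24%). The shares of all genes called at 1.5-fold in these comparisons were 0.364%, 0.505% and 0.516%.

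SLC2A1 was the one transporter whose differences between depletions held throughout. It was higher in siTET2 than in siTET1 by 0.41 ± 0.035 (limma adjusted p = 2.33e-05) and differed between siTET3 and siTET2 by -0.36 ± 0.035 (adjusted p = 4.5e-05), and both calls held under all 15 alternatives. The siTET3 and siTET1 values differed by 0.055, with a 95% interval from -0.020 to 0.13. SLC2A3 was higher than in siTET1 by 0.18 ± 0.041 in siTET2 (adjusted p = 0.0208) and by 0.24 ± 0.041 in siTET3 (adjusted p = 0.00174). Both were lost with no intensity trend (0.206 and 0.0584). The first was also lost without siTET1 replicate 1 or 2 (0.128 and 0.12) or siTET2 replicate 1 or 2 (0.168 and 0.143), and with the neighbours' median taken off (0.0514).

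SLC5A9 was lower in siTET3 than in siTET2 (-0.37 ± 0.087, limma adjusted p = 0.0149), a call lost without siTET2 replicate 1 or 2 (0.0875 and 0.144) or siTET3 replicate 1 (0.0727). SLC16A9 was lower in the same comparison (-0.35 ± 0.089, adjusted p = 0.0229), lost without siTET2 replicate 1 or 2 (0.146 and 0.132) or siTET3 replicate 1 (-0.19, 0.162), with only the 4 arrays compared (0.0539) and with no intensity trend (0.0784). SLC5A6 was higher by 0.17 ± 0.040 (adjusted p = 0.0161), lost without siTET2 replicate 1 or 2 (0.119 and 0.112) and with no intensity trend (0.112). SLC2A13 was lower (-0.24 ± 0.071, adjusted p = 0.0469), and without any 1 of the 6 depletion arrays it was not called (0.0715 to 0.223), nor after quantile normalization (0.0867), with only the 4 arrays compared (0.0513), with no intensity trend (0.0822) or with a replicate block (0.0511).

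Between siTET3 and siTET1, SLC16A10 was lower (-0.23 ± 0.047, limma adjusted p = 0.00687), lost without siTET1 replicate 2 (0.0739) or siTET3 replicate 1 (0.0516) and with no intensity trend (0.0671). With the neighbours' median taken off the difference was -0.10 (0.168). SLC2A12 was lower (-0.37 ± 0.096, adjusted p = 0.0227), lost without siTET1 replicate 1 or 2 (0.103 and 0.124) or siTET3 replicate 1 (0.133) and with only the 4 arrays compared (0.067). SLC16A8 was higher by 0.35 ± 0.094 (adjusted p = 0.0257), lost without siTET1 replicate 1 or 2 (0.184 and 0.0573), siTET2 replicate 1 or 2 (0.0506 each) or siTET3 replicate 1 (0.0826) and with only the 4 arrays compared (0.0766).

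**Figure D4:**
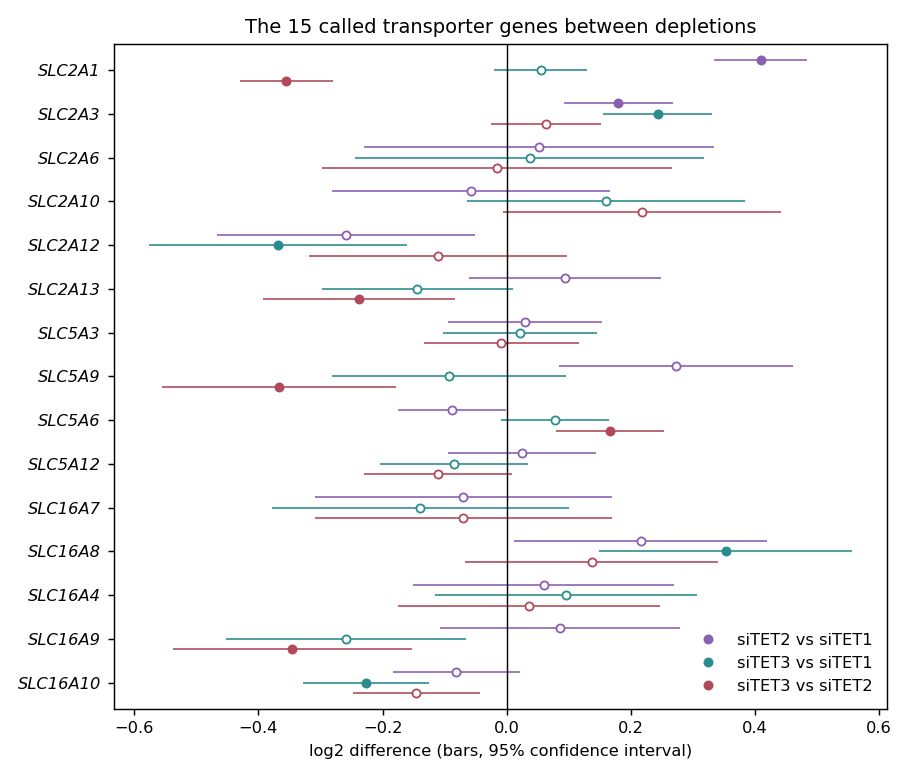
Log2 difference between depletions (x axis) for the 15 transporter genes called in any comparison (y axis), with colours for the 3 pairs. Points are differences of the means of 2 arrays, filled where called, and bars are 95% confidence intervals. The SLC2A1 differences of 0.41 and -0.36 have intervals far from 0.

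Partners and neighbouring steps of these carriers were followed in a list of 24 genes, 23 of them measured: chaperones, glucose sensors, trafficking proteins, hexokinases and enzymes of pyruvate and lactate. Against siNTC 13 of 23 (56.5%) were called in each depletion, beside 34.3%, 36.2% and 36.1% of all genes. In siTET1 6 were higher (15.6% of all genes) and 7 lower (18.7%), with 0 at 1.5-fold (5.13%). In siTET2 5 were higher (14.4%) and 8 lower (21.8%), with 3 at 1.5-fold (6.16%). In siTET3 4 were higher (13.8%) and 9 lower (22.3%), with 3 at 1.5-fold (5.91%). The list median was -0.16, -0.13 and -0.021, beside -0.031, -0.039 and -0.017 over all genes. The list was chosen with earlier results of these data known, so these shares and medians do not set it apart from other genes.

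EMB (embigin), the chaperone that brings SLC16A7 to the surface, had values of 8.68 and 8.48 in siNTC, 7.98 and 8.03 in siTET1, 7.99 and 7.82 in siTET2, and 7.78 and 7.67 in siTET3. It lay below siNTC on all 6 depletion arrays and reached 1.5-fold in siTET2 (-0.67 ± 0.082, limma adjusted p = 2.81e-05) and siTET3 (-0.85 ± 0.082, adjusted p = 3.8e-06). TXNIP, a glucose-induced arrestin that drives internalisation of SLC2A1, rose from 8.63 and 8.74 in siNTC to 9.55 and 9.65 in siTET2 (0.92 ± 0.064, adjusted p = 1.98e-07) and 9.28 and 9.35 in siTET3 (0.63 ± 0.064, adjusted p = 5.38e-06), with 9.31 and 9.17 in siTET1. ASPSCR1 (TUG), a tether of SLC2A4 vesicles, fell from 7.91 and 8.14 in siNTC to 7.44 and 7.33 in siTET3 (-0.64 ± 0.11, adjusted p = 0.000461). Its siTET2 arrays, 7.78 and 7.41, were 0.37 apart. Below 1.5-fold, EMB was also called lower in siTET1 (-0.57), TXNIP higher in siTET1 (0.56) and ASPSCR1 lower in siTET2 (-0.43).

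Between siTET2 and siTET1, 6 of the 23 partner genes were called (26.1%, beside 6.46% of all genes), 2 of them at 1.5-fold (0.364% of all genes), HK2 and PDK1. Between siTET3 and siTET1 7 were called (30.4%, beside 13.8%) and between siTET3 and siTET2 5 (21.7%, beside 12.2%), 0 at 1.5-fold in either. With the list chosen when earlier results were known, these shares do not set it apart from other genes either. HK2, the inducible hexokinase that traps glucose in the cell, was highest in siTET2 cells, as was SLC2A1. Its values were 8.91 and 8.79 in siNTC, 9.04 and 9.18 in siTET1, 9.68 and 9.74 in siTET2, and 9.29 and 9.22 in siTET3. The change against siNTC was 0.86 ± 0.061 in siTET2 (limma adjusted p = 2.37e-07), and siTET2 exceeded siTET1 by 0.61 ± 0.061 (adjusted p = 0.000112). HK2 was also called higher than in siNTC in siTET1 (0.26) and siTET3 (0.40). PDK1, which inhibits pyruvate dehydrogenase, had 9.58 and 9.62 in siNTC, 9.42 and 9.29 in siTET1, 10.06 and 10.09 in siTET2, and 9.60 and 9.51 in siTET3. It was higher in siTET2 than in siTET1 by 0.72 ± 0.054 (adjusted p = 8.46e-06). Against siNTC, PDK1 was called lower in siTET1 (-0.24) and higher in siTET2 (0.48). These calls at 1.5-fold held under all 15 alternatives.

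**Figure D5:**
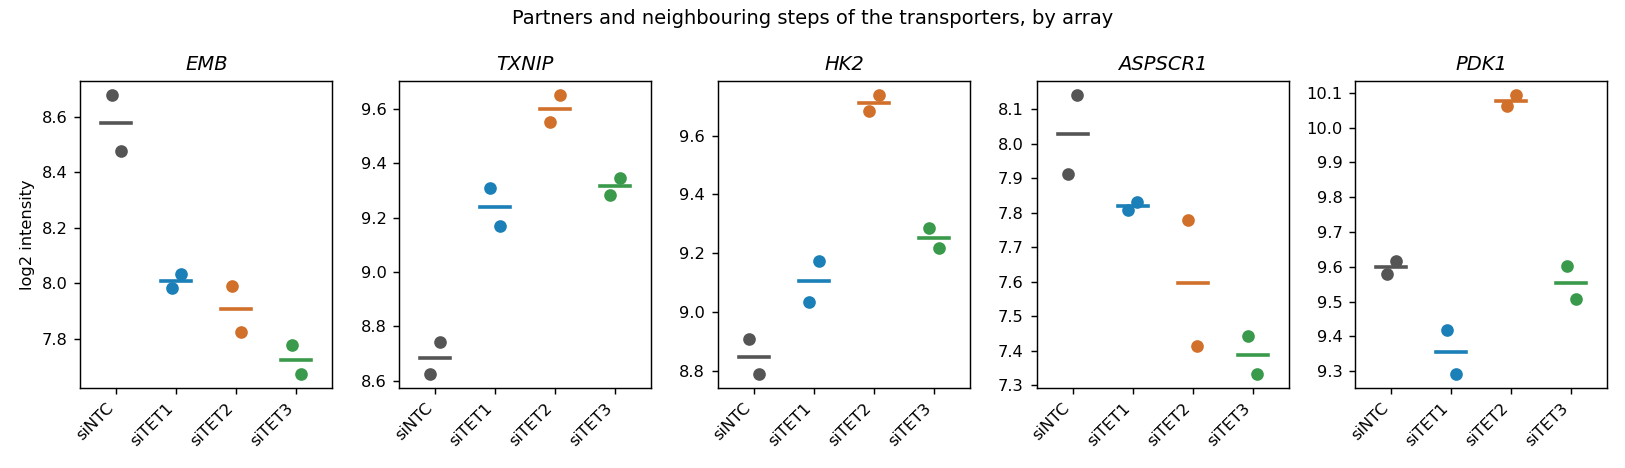
Log2 intensity (y axis, a separate scale for each gene) of the 5 partner and pathway genes called with at least a 1.5-fold change, by group (x axis). Points are single arrays and bars are means of 2 arrays. HK2 and PDK1 are highest in siTET2, and EMB is lower on all 6 depletion arrays.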

How the data were processed

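Total RNA (250 ng) from NCCIT cells was hybridised to 8 Affymetrix human gene arrays. The deposited values are log2 intensities that the authors had normalized across the arrays. The submitters' processing notes name Partek, with version, background correction and summarization not given in the sources used here. Values ran from 3.13 to 14.75 over 33297 clusters. The platform annotation gives 1 gene symbol to 19460 clusters, several to 1754 and none to 12083, and the tests used the first kind alone. The cluster with the highest mean represented a gene, leaving 18417 genes.

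One limma model (version 3.58.1, R 4.3.3; lmFit and eBayes with an intensity trend) estimated the 4 group means from all 8 arrays for every gene, with 4 residual and 8.55 prior degrees of freedom. Tests were two-sided and adjusted by the Benjamini-Hochberg method. The labels do not say whether the 2 replicates came from different cultures, and the p-values therefore cover the spread of these arrays, which may be technical, and the number of arrays limits the precision.

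The members and lists were chosen with earlier results of these data known. By rule the text names SLC5A9, each transporter called with at least a 1.5-fold change, and pathway genes called at that size. All other called transporters are described too, which goes beyond the rule and was decided after values were seen. The alternatives tried were a fit of the 4 arrays compared, quantile normalization, a prior with no intensity trend, removal of genes below background, averaging of a gene's clusters, a replicate block, subtraction of the median of the 25 nearest genes above background, and leaving out each array. Promoter windows came from RefSeq (GRCh38.p14), and planned protein comparisons were not analysed here. Figures were made in Python 3.11.15 with matplotlib 3.10.9.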

Additional observations from a re-analysis of the deposited data

Results flagged for a closer look

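Of the transporters, 11 differences between depletions passed the test of the difference itself in the limma fit. SLC2A1 was higher in siTET2 than in siTET1 (0.41) and lower in siTET3 than in siTET2 (-0.36). SLC2A3 was higher than in siTET1 both in siTET2 (0.18) and in siTET3 (0.24). Between siTET3 and siTET1, SLC2A12 (-0.37) and SLC16A10 (-0.23) were lower and SLC16A8 (0.35) was higher. Between siTET3 and siTET2, SLC2A13 (-0.24), SLC5A9 (-0.37) and SLC16A9 (-0.35) were lower and SLC5A6 (0.17) was higher. Of the partner genes named, HK2 (0.61) and PDK1 (0.72) were higher in siTET2 than in siTET1.

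A cluster outside the comparisons, which the annotation assigns to both SLC16A13 and JOSD1, had log2 values of 5.99 and 5.71 in siNTC and was above both on all 6 depletion arrays, by a mean of 0.88 in siTET1, 0.57 in siTET2 and 0.51 in siTET3. Its signal cannot be assigned to 1 of the 2 genes, and it entered no test.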

How the results depend on the processing

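Of 44 transporter calls, 21 held under all 15 alternatives (19 of 33 against siNTC and 2 of 11 between depletions, both of SLC2A1). Of the 44, 1 changed sign, that of SLC5A3 in siTET1, to 0.0118 once its neighbours' median was subtracted on each array. Without an intensity trend the called transporters numbered 1 for siTET2 against siTET1, 2 for siTET3 against siTET1 and 2 for siTET3 against siTET2, and with only the 4 arrays compared 2 and 3 for the last 2 pairs. With each array left out in turn, counts ran from 6 to 11 for siTET1 against siNTC (6 without siTET1 replicate 1), from 7 to 11 for siTET2 against siNTC (7 without siTET2 replicate 2 or siNTC replicate 2) and from 9 to 12 for siTET3 against siNTC. They ran from 1 to 3 for siTET2 against siTET1 (1 without any siTET1 or siTET2 array), from 1 to 5 for siTET3 against siTET1 (1 without siTET1 replicate 2 or siTET3 replicate 1, 2 without siTET1 replicate 1) and from 1 to 6 for siTET3 against siTET2 (1 without either siTET2 array, 2 without siTET3 replicate 1). The other changes were losses of calls with direction kept: of the 44, quantile normalization lost 3, the 4 arrays alone 9, no intensity trend 10 and neighbour subtraction 9, while removing genes below background or averaging clusters lost 0. The cause was not tested. The 11 results given for partner genes and the targeted TETs kept their call under all 15 alternatives. The labels do not say whether same-numbered arrays were prepared as pairs. Their deviations correlated at -0.043 to 0.238 over the 6 pairs of groups, highest between siTET1 and siTET3, which cannot settle it. With a replicate block the counts were 11, 11, 12, 2, 4 and 4 for siTET1, siTET2 and siTET3 against siNTC, siTET2 against siTET1, siTET3 against siTET1 and siTET3 against siTET2, and SLC2A13 between siTET3 and siTET2 was the call lost (adjusted p = 0.0511). Genes near background, 12 of the 35, limit what can be seen, since a lack of a call there does not show a lack of change.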
